A study of Homo sapiens with 12 samples.

Results

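The 9 genes described here encode proteins that restrain NF-kB signalling: the IkB proteins NFKBIA, NFKBIB and NFKBIE, the atypical nuclear IkB proteins NFKBIZ and BCL3, and the ubiquitin-editing regulators TNFAIP3, TNIP1, TNIP2 and CYLD. They were chosen by name, as every probe set annotated to 1 of the 9 symbols, and make up 9 of 19775 genes on the arrays. This gave 24 of 54675 probe sets, and 21 of the 24 passed the filter on low signal (a mean signal of at least 12.55 over the 12 arrays). The arrays measured total RNA of Z-138 and Maver-1, established human lines from mantle cell lymphoma, a cancer of B cells. The labels give a nonsense change in TRAF2 for Z-138 and a TRAF3 deletion for Maver-1, and each line's change is also present in its control cultures. Each line carried 1 of 3 hairpins under puromycin selection: the non-targeting control NTC, or NIKsh#1 or NIKsh#2, which target MAP3K14 (the kinase NIK). Each of the 6 cultures was grown for 7 days without doxycycline, the inducer of the hairpins, or with 100 ng/ml of it, with 1 array per culture and condition. The NTC hairpin was thus measured in 1 culture per line, and nothing in the labels says that a culture was repeated. The design asks what follows the loss of NIK in lymphoma cells whose alternative NF-kB pathway is altered upstream.

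NF-kB transcription factors are dimers that the IkB proteins hold inactive, mostly in the cytoplasm, until a kinase complex marks the IkB for destruction. NIK starts the alternative branch of this signalling, in which the precursor encoded by NFKB2 is processed. Several inhibitor genes, NFKBIA and TNFAIP3 among them, are themselves switched on by NF-kB, which closes a negative feedback loop. TNFAIP3 encodes A20, a ubiquitin-editing enzyme that damps the pathway above the kinase complex and is often inactivated in B cell lymphoma, TNIP1 and TNIP2 encode proteins that bind A20, and CYLD encodes a deubiquitinase that removes activating ubiquitin chains.

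The start-site sequences of 4 members are given first, because they differ in whether they hold the letters of an NF-kB binding motif. They run from 250 bases before to 50 bases after a RefSeq start site (GRCh38.p14), 5′ to 3′ on the gene's strand, and the capitals mark matches to the kappaB consensus, a motif of 10 bases searched on both strands. NFKBIA is shown at chr14:35404700-35404999 (minus strand), TNFAIP3 at chr6:137867009-137867308 (plus strand), CYLD at chr16:50741836-50742135 (plus strand) and TNIP2 at chr4:2756287-2756586 (minus strand).
NFKBIA: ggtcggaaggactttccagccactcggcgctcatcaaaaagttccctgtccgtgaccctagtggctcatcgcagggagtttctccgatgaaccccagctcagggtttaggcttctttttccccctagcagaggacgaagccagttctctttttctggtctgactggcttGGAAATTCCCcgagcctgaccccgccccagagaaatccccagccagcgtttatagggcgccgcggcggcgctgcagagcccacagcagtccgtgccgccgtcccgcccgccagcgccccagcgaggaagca
TNFAIP3: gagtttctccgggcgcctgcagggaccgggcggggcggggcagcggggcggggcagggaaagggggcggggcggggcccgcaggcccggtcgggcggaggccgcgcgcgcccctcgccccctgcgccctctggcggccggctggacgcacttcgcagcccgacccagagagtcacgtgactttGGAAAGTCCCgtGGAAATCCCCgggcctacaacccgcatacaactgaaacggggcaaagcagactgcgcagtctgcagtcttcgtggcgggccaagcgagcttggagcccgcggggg
CYLD: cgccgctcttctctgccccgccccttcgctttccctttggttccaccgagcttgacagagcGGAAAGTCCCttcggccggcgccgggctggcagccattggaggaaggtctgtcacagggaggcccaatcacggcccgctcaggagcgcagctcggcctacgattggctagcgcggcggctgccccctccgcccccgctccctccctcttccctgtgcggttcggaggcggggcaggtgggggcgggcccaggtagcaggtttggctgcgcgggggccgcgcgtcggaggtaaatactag
TNIP2: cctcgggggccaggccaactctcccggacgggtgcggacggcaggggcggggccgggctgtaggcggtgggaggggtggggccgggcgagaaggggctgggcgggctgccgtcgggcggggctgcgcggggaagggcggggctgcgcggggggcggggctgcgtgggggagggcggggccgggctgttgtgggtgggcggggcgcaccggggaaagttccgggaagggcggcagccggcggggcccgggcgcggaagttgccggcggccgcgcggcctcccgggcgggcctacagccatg
The NFKBIA window holds GGAAATTCCC, whose first base lies 81 bases before the start site. TNFAIP3 has a pair of matches, GGAAAGTCCC at 67 and GGAAATCCCC at 55 bases before the start. CYLD has GGAAAGTCCC at 189 bases before the start shown, and TNIP2 has no match in its window. Of the 8 members matched to at least 1 window (NFKBIE had none), 7 had a match in any window, against 7.09% of 27305 genes. The members were chosen as regulators of NF-kB, several of them switched on by it, so this share describes a chosen set. In the other members the nearest match lay 42 bases before a start site in TNIP1, 27 in NFKBIB (where 2 matches overlap) and 223 in NFKBIZ, and in BCL3 it lay just after the start site. Per window, 9 of 13 member windows and 5.91% of 35116 windows in all held a match. A match is a description of these letters and was not measured as a binding site here.

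In the readings below the value without doxycycline comes first, then the value with it. Signal was deposited as linear MAS5 intensity per probe set, with array medians from 10.6 to 14.1, and changes below are log2 differences of (signal + 3) between a culture with doxycycline and the same culture without it. For genes, limma was fitted on 11548 genes and p-values were adjusted over all of them (called at 0.05), and each ± is the standard error of that fit. All 5 B cell markers and all 4 plasma cell markers matched on the arrays lay above the filter on every array of both lines. So did CCND1 and SOX11 of the mantle cell lymphoma markers, while CD5 was at 0.5 to 1.6 in Z-138 and 33.7 to 70.8 in Maver-1. No monocyte marker did in either line. In Z-138, 1 of 6 T and NK cell markers (CD3G, 56.6 to 177.5) lay above it on every array. In Maver-1, 2 of 5 epithelial and fibroblast markers (EPCAM at 173.0 to 314.4, and KRT8) did. The target MAP3K14 read 55.2 without and 33.3 with doxycycline in Z-138 NIKsh#1, 52.0 then 49.2 in Z-138 NIKsh#2, 86.9 then 63.4 in Maver-1 NIKsh#1, 79.3 then 55.7 in Maver-1 NIKsh#2, 46.4 then 55.4 for Z-138 NTC, and 77.2 then 132.7 for Maver-1 NTC. It was lower in all 4 NIKsh cultures, least in Z-138 NIKsh#2, and did not pass the test (-0.42 ± 0.18, adjusted p = 0.529). The 3' to 5' signal ratio of GAPDH, a sign of RNA integrity and amplification, was 1.15 to 2.00 on Z-138 arrays and 1.42 to 2.39 on Maver-1 arrays. Its values stand beside the members with which it moved.

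The inhibitors NFKBIA, TNFAIP3 and CYLD fell in Z-138 when the MAP3K14 hairpins were induced, and no member was called in Maver-1. Of the 8 members in the gene-level test, 3 of 8 were called in Z-138, against 2.14% of all genes, and 0 of 8 in Maver-1, where limma called 0% of all genes. The 3' to 5' ratio of ACTB rose with doxycycline in every Z-138 culture, and most in NTC. Its log2 change was 0.69 (NIKsh#1), 0.80 (NIKsh#2) and 1.45 (NTC) for Z-138, against -0.12, 0.06 and -0.64 for Maver-1. In the Z-138 NTC culture the brightest probe sets of the called members changed by 0.66 (NFKBIA), 0.29 (TNFAIP3) and 0.26 (CYLD). The other CYLD probe sets above the filter were divided there. Lower were 221905_at (-1.20), 222142_at (-0.70) and 60084_at (-0.50), and higher were 39582_at (0.24) and 221903_s_at (0.45). With that ratio as a covariate, a fit with 1 residual degree of freedom, no Z-138 call remained, and the estimates were -1.83 for TNFAIP3, -1.18 for NFKBIA and 0.64 for CYLD. Without adjustment, 3 members were lower and 1 higher at p under 0.05 in Z-138, where 16.2% of all genes passed either way and 7.12% as lower. In Maver-1, 2 members were lower, beside 3.97% of all genes either way and 2.2% as lower. Pooled over the 4 NIKsh cultures, 0 of 8 were called (1 of 8, CYLD, with no replicate block), against 0.0433% of all genes, and 4 were lower and none higher at an unadjusted p under 0.05, which 8.98% of all genes reached in either direction and 4.3% as lower. The median change of the 8 members over the 4 cultures was -0.51, beside 0.01 for all genes. BCL3 is not among the 8, because both of its probe sets are annotated to BCL3 and to MIR8085, a microRNA gene that lies inside it, and it is given from the fit of all probe sets. In RNA from whole cultures, fewer expressing cells and less RNA per cell cannot be told apart.

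**Figure D1:**
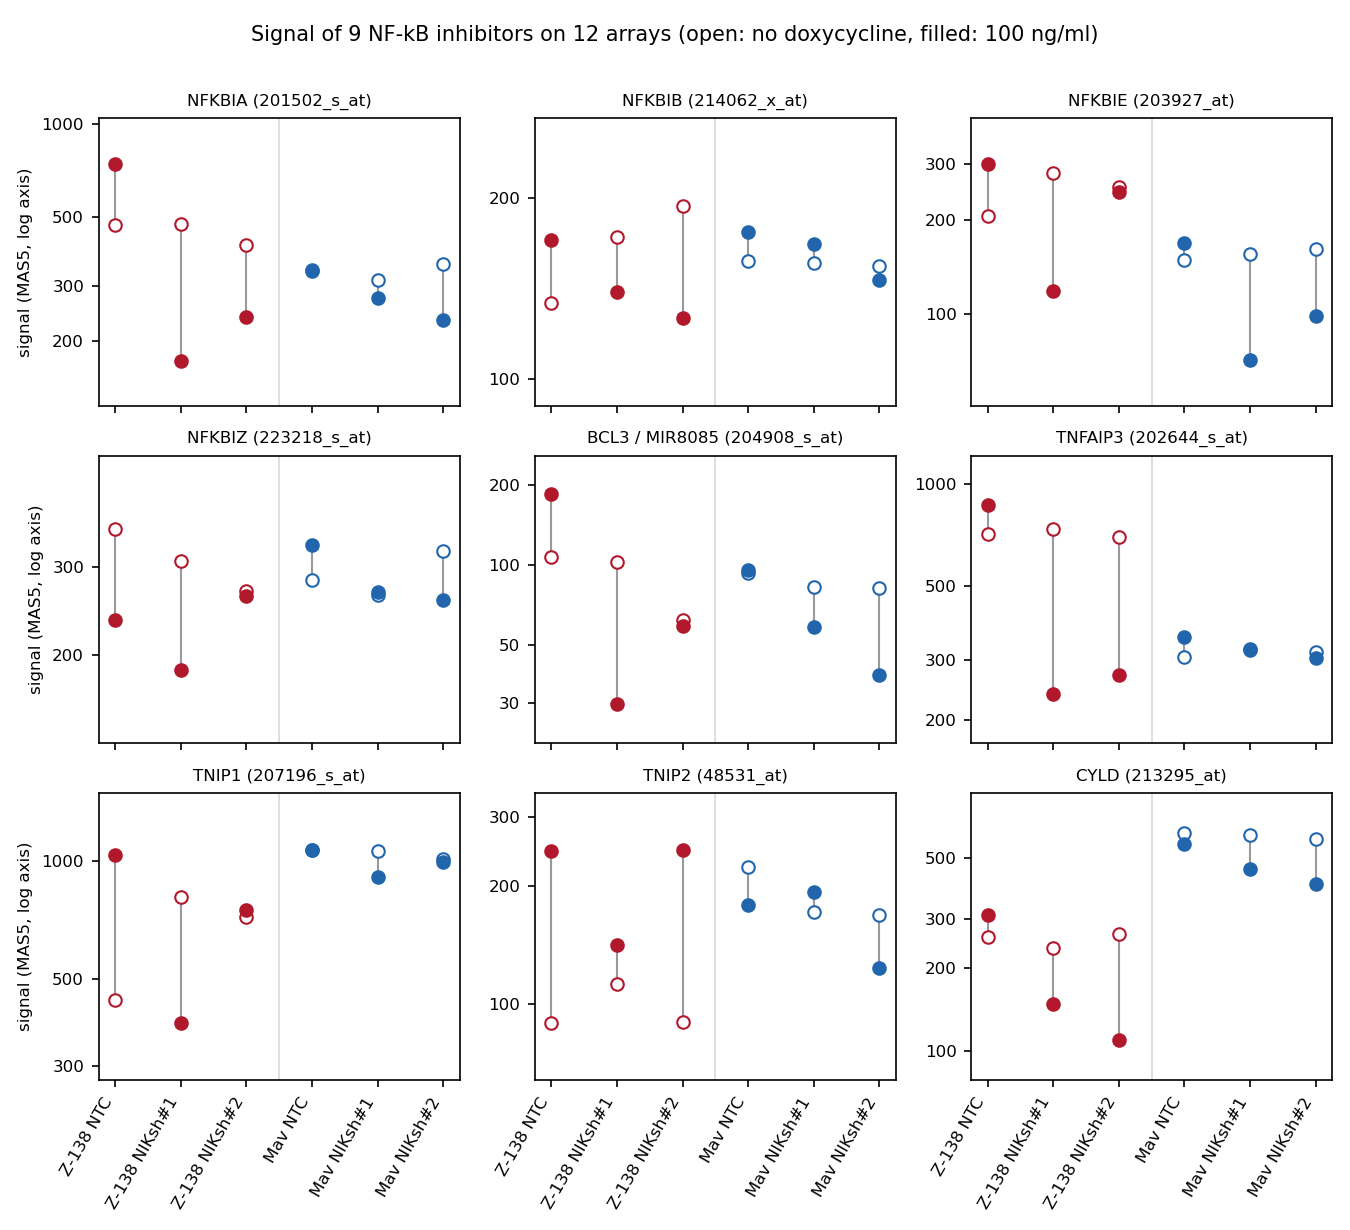
Signal of the brightest probe set of each member (MAS5 signal, log axis) on each of the 12 arrays, by culture, with open circles without and filled circles with 100 ng/ml doxycycline, Z-138 in red and Maver-1 (Mav) in blue. TNFAIP3 is at 238.3 and 271.9 in the induced Z-138 NIKsh cultures and between 304.1 and 352.0 on the induced Maver-1 arrays.

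NFKBIA (chromosome 14, 35401513 to 35404749, GRCh38) encodes IkBα, the inhibitor that binds canonical NF-kB dimers and is quickly resynthesised after its destruction. Its brighter probe set (201502_s_at) read 475.6 without and 172.6 with doxycycline in Z-138 NIKsh#1, and 408.0 then 237.6 in Z-138 NIKsh#2. The Z-138 NTC culture went the other way, from 471.2 to 744.1. The Maver-1 readings were 313.5 then 274.2 for NIKsh#1, 352.7 then 233.7 for NIKsh#2, and 337.0 then 334.9 for NTC. All 4 NIKsh cultures were therefore lower with doxycycline and neither NTC culture was lower by more than 0.01 on the log2 scale. NFKBIA fell by 1.11 ± 0.21 in Z-138 (adjusted p = 0.0323, both NIKsh cultures lower), and it was called in 15 of 19 alternatives. The 19 include leaving out each NTC culture, which cannot change an estimate for the NIKsh cultures of a line. The Maver-1 estimate was -0.39 ± 0.21 (adjusted p = 0.998) and that over all NIKsh cultures -0.75 ± 0.20 (adjusted p = 0.246). Averaged with the dimmer probe set (231699_at), the Z-138 change was -0.997 and lost its call (adjusted p = 0.128), and that probe set was higher in Maver-1 NIKsh#1, at 23.2 without and 36.7 with doxycycline.

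NFKBIE (chromosome 6, 44258166 to 44265551) encodes IkBε, another cytoplasmic inhibitor that is prominent in B cells. It was lower with doxycycline in both Maver-1 NIKsh cultures: its single probe set (203927_at) read 155.3 then 71.3 in Maver-1 under NIKsh#1 and 161.4 then 98.2 under NIKsh#2. The Maver-1 NTC culture went from 148.6 to 168.9. In Z-138 the hairpins were unlike each other, 281.7 then 118.0 for NIKsh#1 but 253.8 then 245.7 for NIKsh#2, while NTC went from 204.6 to 300.2. NFKBIE was thus the only member at least 1.5-fold lower in both Maver-1 NIKsh cultures, which 0.658% of all genes were. None of these estimates passed: -0.77 ± 0.20 over the 4 NIKsh cultures (adjusted p = 0.246), -0.90 ± 0.28 in Maver-1 (unadjusted p = 0.0115, adjusted p = 0.998) and -0.64 ± 0.28 in Z-138 (adjusted p = 0.309). The Z-138 estimate ran from -4.16 to -0.05 over 19 alternatives, of which 1 called it. The -4.16 came with the ACTB ratio as a covariate, a fit with 1 residual degree of freedom. Without Z-138 NIKsh#1 or without Z-138 NIKsh#2 the Maver-1 change was called. These fits kept 1 Z-138 NIKsh culture, and their 1 residual degree of freedom came from the 2 Maver-1 NIKsh cultures alone. The calls therefore add no evidence from other cultures. Between hairpins, NIKsh#2 minus NIKsh#1 was 0.79 ± 0.34 (unadjusted p = 0.0478, adjusted p = 1.00), the largest hairpin difference among the tested members.

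NFKBIB (chromosome 19, 38899666 to 38908889) encodes IkBβ, which binds similar dimers but is resynthesised more slowly. Its brightest probe set (214062_x_at) was lower with doxycycline in both Z-138 NIKsh cultures, 172.3 then 139.3 for NIKsh#1 and 193.4 then 126.4 for NIKsh#2. Under NTC the Z-138 readings were 133.7 then 170.3. The 3 Maver-1 cultures lay between 146.0 and 175.4 under both conditions. NFKBIB did not pass in Z-138 (-0.45 ± 0.20, adjusted p = 0.32) or over the 4 NIKsh cultures (-0.22 ± 0.16, adjusted p = 0.76). The 3 probe sets of NFKBIB did not move together: in Z-138 NIKsh#2, 214062_x_at changed by -0.60, 214448_x_at by -0.77 and 228388_at by 0.19.

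The nuclear IkB proteins bind NF-kB on DNA and can activate as well as repress its targets. NFKBIZ (chromosome 3, 101827990 to 101861022), which encodes IkBζ, did not separate NIKsh from NTC cultures. Its brighter probe set (223218_s_at) was lower with doxycycline under both NIKsh#1 (307.7 then 187.2) and NTC (356.9 then 234.6) in Z-138, and read 268.0 then 262.0 under NIKsh#2. In Maver-1 the log2 changes were 0.23 in NTC, 0.03 in NIKsh#1 and -0.32 in NIKsh#2. The estimate over the NIKsh cultures was -0.26 ± 0.18 (adjusted p = 0.745), and the dimmer probe set (223217_s_at) was higher by 0.44 in Z-138 NIKsh#1, where the brighter changed by -0.71.

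BCL3 (chromosome 19, 44747705 to 44760044) encodes a nuclear cofactor of the NF-kB subunits that lack an activation domain. The probe set annotated to BCL3 and MIR8085 (204908_s_at) is designed on a transcript that RefSeq gives to BCL3. It was lower with doxycycline in the 4 NIKsh cultures, with 102.4 then 29.7 and 62.1 then 58.8 for the Z-138 hairpins #1 and #2, and 82.4 then 58.2 and 81.7 then 38.5 for the Maver-1 hairpins. The NTC readings were 107.3 then 185.0 for Z-138 and 93.0 then 95.8 for Maver-1. The groups of changes did not overlap, but the estimate over the NIKsh cultures, -0.82 ± 0.26, did not pass (adjusted p = 0.476 over all probe sets, of which 0.00718% were called). Its second probe set (204907_s_at) lay below the filter, with a mean signal of 5.26.

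TNFAIP3 (chromosome 6, 137866349 to 137883312), the gene of A20, gave the largest difference between the lines among the tested members. In Z-138 the brighter probe set (202644_s_at) read 735.7 then 238.3 with hairpin NIKsh#1, 696.2 then 271.9 with NIKsh#2, and 710.1 then 870.1 with NTC. The induced NIKsh cultures kept 0.324 and 0.391 of the signal of the same cultures without doxycycline. In Maver-1 the signal was 323.5 then 322.2 with NIKsh#1, 317.2 then 304.1 with NIKsh#2, and 307.1 then 352.0 with NTC. TNFAIP3 fell by 1.48 ± 0.16 in Z-138 (adjusted p = 0.00257, both NIKsh cultures lower), and the call held in 17 of 19 alternatives. In Maver-1 the estimate was -0.03 ± 0.16 (adjusted p = 0.998). The difference between the lines, 1.45 ± 0.22, did not pass over all genes (unadjusted p = 0.000114, adjusted p = 0.0805), and it ranged from 1.31 to 1.81 over 19 alternatives, of which 6 called it. Of the 6, some left 1 NIKsh culture in a line: without Z-138 NIKsh#1 (1.31), without Z-138 NIKsh#2 (1.58) and without Maver-1 NIKsh#2 (1.47). Their 1 residual degree of freedom came only from the line that kept both NIKsh cultures. The rest were arrays scaled to one median (1.46, adjusted p = 0.00897), no replicate block (1.46, adjusted p = 0.00157) and culture as a random block (1.46, adjusted p = 0.000977). In these, 52, 64 and 92 of all genes were called, against 14 in the main fit.

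The second TNFAIP3 probe set (202643_s_at) gave the same picture, with Z-138 readings of 292.8 then 89.6 (NIKsh#1), 265.6 then 73.4 (NIKsh#2) and 284.4 then 335.8 (NTC). The induced NIKsh cultures kept 0.306 and 0.276 of the signal without doxycycline. In the fit of all probe sets it fell by 1.74 ± 0.21 in Z-138 (adjusted p = 0.00699, beside 1.02% of probe sets called). Untreated Z-138 cultures lay at 696.2 to 735.7 on the brighter probe set and untreated Maver-1 cultures at 307.1 to 323.5, so that with doxycycline both Z-138 NIKsh cultures were below every Maver-1 array.

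TNIP1 (chromosome 5, 151029943 to 151087685) encodes the A20-binding protein ABIN-1. Its probe set above the filter (207196_s_at) spread widely among the untreated Z-138 cultures, at 442.4 in NTC, 806.8 in NIKsh#1 and 718.0 in NIKsh#2. With doxycycline these cultures read 1037.9, 385.4 and 750.7. The Maver-1 arrays all lay between 911.8 and 1065.4. TNIP1 did not pass in Z-138 (-0.50 ± 0.22, adjusted p = 0.313), and its difference between NIKsh and NTC changes, -0.92 ± 0.37 (unadjusted p = 0.0302, adjusted p = 0.884), was -0.31 without the Z-138 NTC culture and -1.54 without the Maver-1 NTC culture. Without Z-138 NIKsh#1 the Z-138 estimate was 0.06. Over 19 alternatives the Z-138 estimate ran from -3.26 to 0.06, and 2 of them called it. The -3.26 came with the ACTB ratio as a covariate, a fit with 1 residual degree of freedom.

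TNIP2 (chromosome 4, 2741648 to 2756336), which encodes ABIN-2, was higher with doxycycline in all 3 Z-138 cultures, the NTC culture included, on the brightest 2 of its 3 probe sets. On the third (218335_x_at) Z-138 NIKsh#1 read 73.1 then 65.2. The brightest probe set (48531_at) read 89.3 then 245.4 under NTC, 112.3 then 141.7 under NIKsh#1 and 90.1 then 247.1 under NIKsh#2. The Maver-1 readings were 223.1 then 178.7 under NTC, 171.4 then 192.6 under NIKsh#1 and 169.1 then 123.8 under NIKsh#2. The Z-138 NIKsh estimate of 0.88 ± 0.29 did not pass (unadjusted p = 0.0134, adjusted p = 0.173). It was called in 3 of 19 alternatives. One was the fit without Z-138 NIKsh#1 (1.43), which kept 1 Z-138 NIKsh culture. The others had no replicate block (0.93, adjusted p = 0.0434) or culture as a random block (0.93, adjusted p = 0.034). The estimate was 0.33 without Z-138 NIKsh#2. The NIKsh and NTC changes differed by -0.19 ± 0.55 (adjusted p = 0.959). The GAPDH 3' to 5' ratio moved with this probe set: it was 1.17 then 2.00 in the Z-138 NTC culture and 1.15 then 1.83 in NIKsh#2, both with a TNIP2 change of 1.43, and 1.30 then 1.36 in NIKsh#1, where the TNIP2 change was 0.33. The Maver-1 ratio was 2.39 then 1.68 under NTC, 1.63 then 1.58 under NIKsh#1 and 1.54 then 1.42 under NIKsh#2. With the log2 ratio as a covariate, an alternative added after these values were seen, the fit had 1 residual degree of freedom. The Z-138 NIKsh estimates were then 0.18 for TNIP2 and -1.16 for TNIP1. The slope on the ratio rests almost only on the 2 Z-138 NIKsh cultures. This fit therefore cannot tell the ratio apart from any other difference between these cultures.

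**Figure D2:**
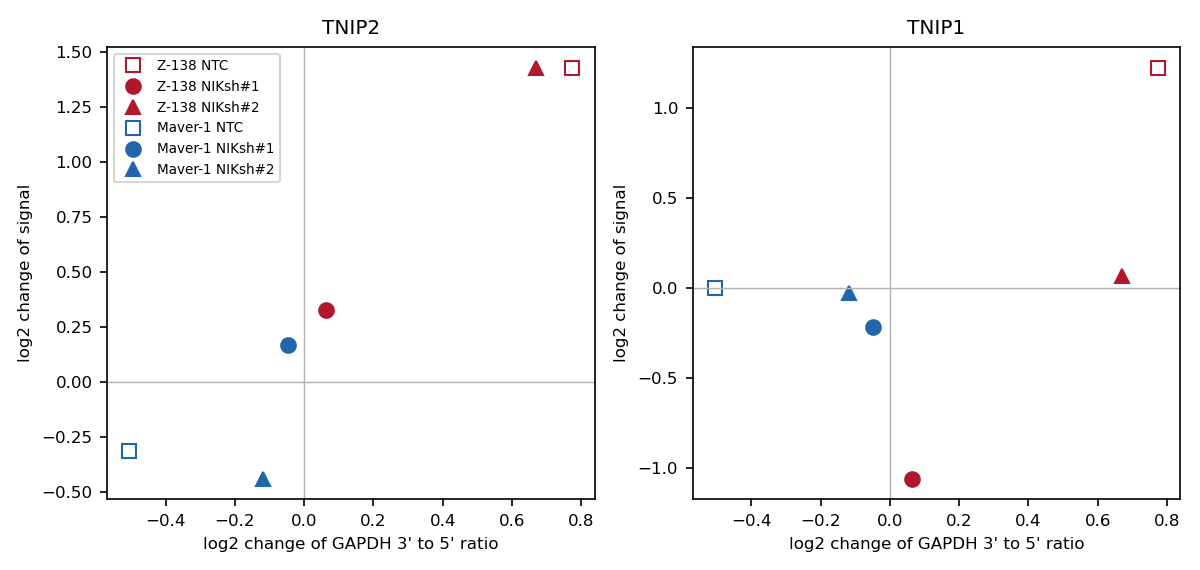
Log2 change with doxycycline of TNIP2 (left) and TNIP1 (right) signal against the log2 change of the GAPDH 3' to 5' signal ratio, 1 point per culture, Z-138 in red and Maver-1 in blue, with open squares for NTC, circles for NIKsh#1 and triangles for NIKsh#2. TNIP2 is at 1.43 in both cultures where the ratio changed by 0.77 and 0.67, and TNIP1 is at 1.22 in one of these and 0.06 in the other.

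CYLD (chromosome 16, 50742086 to 50801935) was lower in all 4 NIKsh cultures on its brightest probe set (213295_at). This probe set read 235.7 then 148.2 with NIKsh#1 and 266.8 then 109.9 with NIKsh#2 in Z-138, and 604.8 then 457.5 and 586.5 then 402.1 for the same hairpins in Maver-1. The NTC cultures read 258.4 then 310.4 for Z-138 and 615.6 then 564.3 for Maver-1. CYLD fell by 0.96 ± 0.19 in Z-138 (adjusted p = 0.0404, both NIKsh cultures lower), and the call held in 12 of 19 alternatives. The call was lost without Z-138 NIKsh#2 (-0.66), with no filter on low signal (adjusted p = 0.0612) and with probe sets averaged (-0.72, adjusted p = 0.147). It was also lost with array weights and with no intensity trend. Nor did it remain with the ACTB ratio (0.64) or the GAPDH ratio (-0.61) as a covariate, fits with 1 residual degree of freedom. The slopes in these fits rest only on differences between the hairpins within each line. In the limma fit of all probe sets no CYLD probe set was called in Z-138, with 213295_at at an adjusted p of 0.0629. The Maver-1 estimate was -0.47 ± 0.19 (unadjusted p = 0.0361, adjusted p = 0.998), and the difference between lines was 0.49 ± 0.27 (adjusted p = 0.649). Over the 4 cultures CYLD was at -0.71 ± 0.16 (unadjusted p = 0.00105, adjusted p = 0.204), the smallest p of the members.

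CYLD has 7 probe sets, of which 6 passed the filter, and 3 of these separated every NIKsh culture from the NTC culture of its line: 213295_at, 39582_at and 221903_s_at. On 39582_at the changes were -0.54 and -1.06 in Z-138 NIKsh and -0.47 and -0.64 in Maver-1 NIKsh, with 0.24 and -0.03 in the NTC cultures. The others did not separate them. Maver-1 NIKsh#1 was higher with doxycycline on 60084_at (22.3 then 33.4) and on 222142_at (23.5 then 26.0). On 221905_at the Z-138 NTC culture was at -1.20, and on 222142_at it was at -0.70 and the Maver-1 NTC culture at -0.63.

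**Figure D3:**
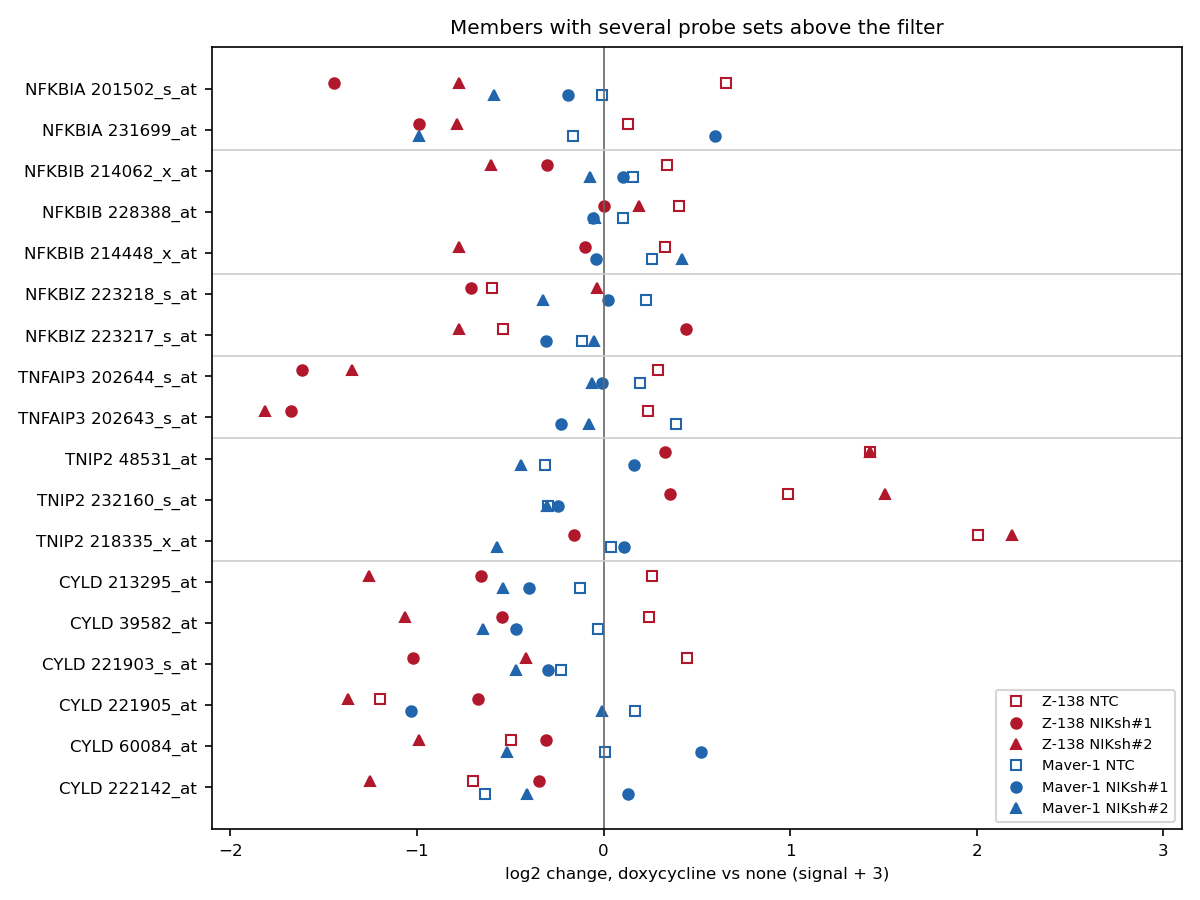
Log2 change with doxycycline in each culture for every probe set above the filter of the members with several such probe sets, Z-138 in red and Maver-1 in blue, open squares for NTC, circles for NIKsh#1 and triangles for NIKsh#2. Both TNFAIP3 probe sets place the Z-138 NIKsh cultures between -1.81 and -1.35, while the 6 CYLD probe sets differ in where they place the NTC cultures.

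The members were set against all genes by how their changes lined up over the cultures. Negative changes in all 4 NIKsh cultures were seen for 4 of 8 members (NFKBIA, NFKBIE, TNFAIP3 and CYLD) and for 8.29% of all genes, but TNFAIP3 left this group with arrays scaled to one median, and NFKBIA left it with probe sets averaged, when NFKBIZ and TNIP1 joined it. Positive changes in all 4 were seen for 0 of 8 members and 9.95% of genes. For 5 members, NFKBIB added to these, every NIKsh change lay below both NTC changes, as for 6.45% of genes. Scaled to one median, or with quantile normalization, NFKBIB left this group, and with probe sets averaged NFKBIA and CYLD left it and TNIP1 joined it. The averages took in probe sets below the filter, 243423_at of TNIP1 (mean signal 7.3) and 214272_at of CYLD (5.5). Each NIKsh change lay below the NTC change of its own line for 6 members, TNIP1 included, and for 14.3% of genes. At least 1.5-fold lower in both Z-138 NIKsh cultures were 3 members (NFKBIA, TNFAIP3 and CYLD) and 2.1% of genes. These shares describe the members, which were picked with earlier results of these arrays known.

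**Figure D4:**
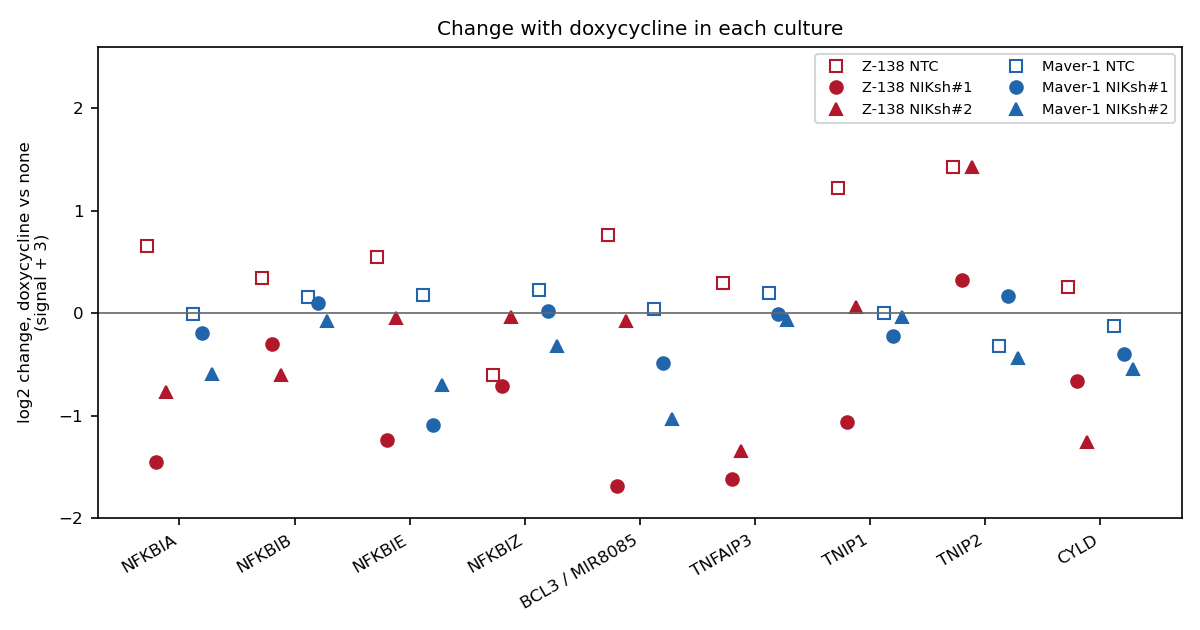
Log2 change with doxycycline (signal + 3) of the brightest probe set of each member in each of the 6 cultures, Z-138 in red and Maver-1 in blue, with open squares for NTC, circles for NIKsh#1 and triangles for NIKsh#2. The filled Z-138 symbols lie at -1.61 and -1.35 for TNFAIP3 and at -1.69 and -0.08 for the BCL3 and MIR8085 probe set, and every filled symbol lies above 0 for TNIP2 in Z-138.

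Induction of the NTC hairpin was the control for doxycycline itself. No member was called in the 2 NTC cultures, where limma called 0% of all genes and 3.35% had an unadjusted p under 0.05. The median change of the 8 members was 0.44 in the Z-138 NTC culture and 0.08 in the Maver-1 NTC culture, beside 0.07 and -0.02 for all genes. In the NIKsh cultures the members' medians were -0.88 (NIKsh#1) and -0.32 (NIKsh#2) for Z-138, and -0.10 (NIKsh#1) and -0.38 (NIKsh#2) for Maver-1. When the NTC change was taken off the NIKsh change, 5 of 8 members were lower at an unadjusted p under 0.05, as were 2.66% of all genes (5.43% in either direction), and none was called after adjustment (0% of all genes). These were NFKBIE at -1.13 ± 0.35, NFKBIA at -1.07 ± 0.34, TNFAIP3 at -1.0 ± 0.44, TNIP1 at -0.92 ± 0.37 and CYLD at -0.78 ± 0.27, with adjusted p from 0.876 to 0.884. With probe sets averaged, 214272_at below the filter included, the CYLD difference was -0.23 (adjusted p = 0.874). Part of each value comes from the single Z-138 NTC culture, where the change was 0.66 for NFKBIA, 0.55 for NFKBIE, 0.29 for TNFAIP3, 1.22 for TNIP1 and 0.26 for CYLD, values with no test of their own.

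The lines were compared directly as the Maver-1 minus the Z-138 change in NIKsh cultures. No member was called, against 0.121% of all genes, and 3 passed an unadjusted 0.05, which 8.59% of all genes did: TNFAIP3 at 1.45 ± 0.22, NFKBIA at 0.72 ± 0.29 (adjusted p = 0.547) and TNIP2 at -1.01 ± 0.40 (adjusted p = 0.543). NFKBIE was at -0.26 ± 0.40 (adjusted p = 0.884), with no difference shown in either direction. Neither the hairpins nor the untreated NIKsh and NTC cultures differed in a called member, and limma called 0% of all genes in both comparisons. At an unadjusted p under 0.05, 1 member passed in each, NFKBIE between hairpins and TNIP1 between untreated NIKsh and NTC cultures (0.37 ± 0.15, adjusted p = 0.989 by limma), as did 1.75% and 4.78% of all genes.

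**Figure D5:**
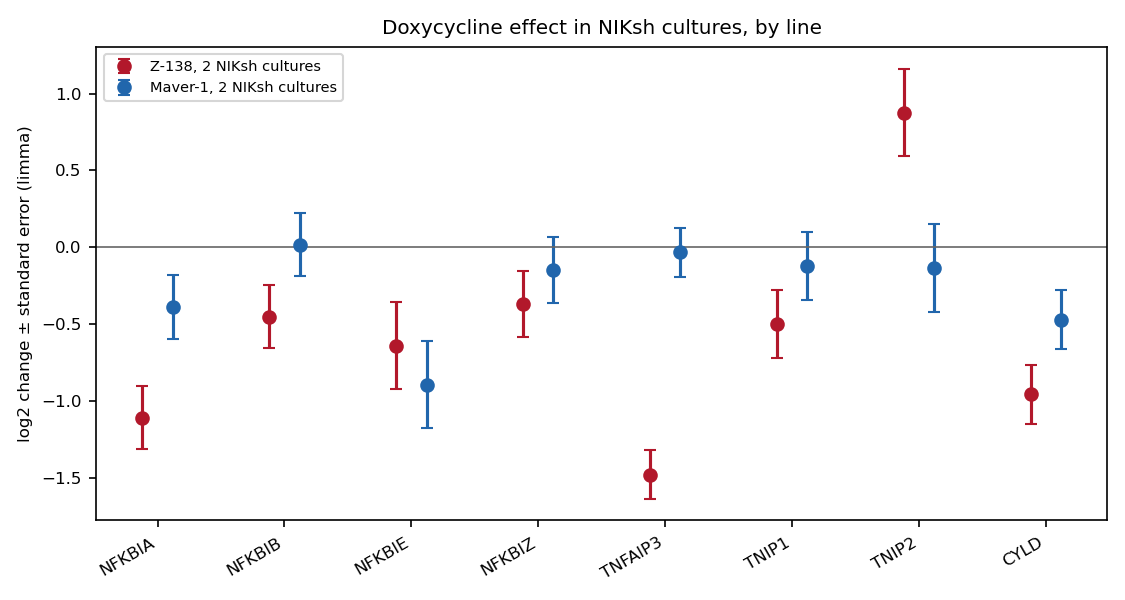
Log2 change with doxycycline in the 2 NIKsh cultures of Z-138 (red) and of Maver-1 (blue) for the 8 tested members, with the limma standard error as bars. TNFAIP3 stands at -1.48 for Z-138 but -0.03 for Maver-1, while NFKBIE is at -0.64 and -0.90.

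Before induction the members already differed between the lines, in both directions. Of 8 members, 6 were called between the 3 untreated Maver-1 and the 3 untreated Z-138 cultures, beside 60.2% of all genes, so the share is near the background. CYLD was higher in Maver-1 by 1.24 ± 0.10 (adjusted p = 2.57e-07), at 586.5 to 615.6 against 235.7 to 266.8 in Z-138. TNIP2 was higher in Maver-1 by 0.93 ± 0.16 (adjusted p = 0.000203) and TNIP1 by 0.72 ± 0.17 (adjusted p = 0.00229). TNFAIP3 was lower in Maver-1, at -1.17 ± 0.09 (adjusted p = 1.97e-07), as were NFKBIE at -0.65 ± 0.14 (adjusted p = 0.00127) and NFKBIA at -0.43 ± 0.11 (adjusted p = 0.00378), whose call was lost with probe sets averaged (-0.35, adjusted p = 0.0905). The untreated signals of these 6 did not overlap between the lines, 3 being higher in Maver-1 (37.9% of all genes) and 3 lower (27.9%). NFKBIZ and NFKBIB did not pass, at -0.10 ± 0.13 (adjusted p = 0.551) and -0.08 ± 0.15 (adjusted p = 0.661), and the BCL3 and MIR8085 probe set was at -0.04 ± 0.21 (adjusted p = 0.879).

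The pathway around the inhibitors was followed in 4 lists, none of which had a called gene over the 4 NIKsh cultures. Among 18 measured of 25 other negative regulators, 1 was lower and 1 higher at an unadjusted p under 0.05, with a median of 0.02. Over all genes 8.98% passed either way and 4.3% as lower, so the counts in this list and in the next are near the background. TANK, an adaptor that binds TRAF proteins, was at -0.63 ± 0.17 (adjusted p = 0.264) over the 4 cultures and fell by 0.90 ± 0.17 in Z-138 (adjusted p = 0.0343), and RNF11, a partner of A20, was at 0.33 ± 0.12 (adjusted p = 0.45). Among 13 measured of 15 kinases and adaptors that act on the inhibitors, 1 was lower, TAB1, an adaptor of the kinase TAK1, at -0.37 ± 0.16 (adjusted p = 0.524). IKBKB, the kinase that marks IkB proteins for destruction, was at 0.20 ± 0.13 (adjusted p = 0.742). Among 7 measured of 11 genes of the ubiquitin ligase and proteasome step, none was lower or higher, with FBXW11 at -0.19 (adjusted p = 0.628) and SKP1 at 0.04 (adjusted p = 0.921).

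Of the 5 NF-kB subunit genes, 3 of 5 were lower at an unadjusted p under 0.05, with none higher and a median of -0.44, beside 4.3% of all genes lower and a median of 0.01. NFKB2, whose precursor protein NIK signalling processes, was at -0.85 ± 0.20 (adjusted p = 0.205), and REL was at 0.13 (adjusted p = 0.835). RELB, the partner of the NFKB2 product, fell by 1.16 ± 0.24 in Z-138 (adjusted p = 0.0477) and was named for this call after its values were seen.

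For each tested member the 3 genes with the most similar pattern were found by Pearson correlation over the 12 arrays after the mean of each line was taken off. The 12 arrays share cultures and doxycycline, so these are descriptions. NFKBIA was nearest to DENND4A (0.988), PSMB6 (0.987) and DOCK10 (0.977), and TNFAIP3 to SIM1 (0.981), WNT10B (0.981) and EPB41L2 (0.976). CYLD was nearest to ITGAE (0.984), EPB41L4B (0.982) and PLEK (0.972), and TNIP2 to TYSND1 (0.974), PPP2CB (0.972) and ANKLE2 (0.967). For NFKBIE the nearest were MGAT3 (0.924), ABI3 (0.921) and AAMP (0.908), and for TNIP1 TUBG1 (0.928), HSD17B4 (0.921) and RAD51C (0.917). NFKBIZ was nearest to RMI2 (0.937), BAK1 (0.918) and TM9SF4 (0.899), and NFKBIB to SUV39H2 (0.910), ACTL10 (0.909) and MYH9 (0.897). Among the members themselves, NFKBIA and TNFAIP3 reached 0.927, NFKBIA and CYLD 0.877, and TNFAIP3 and CYLD 0.869.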

How the data were processed

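The 12 arrays held deposited linear signal intensity per probe set, which the submitters' processing notes attribute to MAS5, from RNA amplified and biotin-labelled per the labels. Every array had the same trimmed mean, and array medians differed 1.33-fold, under the 1.5-fold limit for rescaling, so no further normalization was applied. Tests ran on log2(signal + 3), a scale that understates the change of low signals. Of the probe sets, 41091 had 1 gene symbol, 1801 several and 11721 none, beside 62 controls. The brightest probe set with 1 symbol stood for a gene, and 11548 of 19775 genes had a mean signal of at least 12.55 and were tested. The BCL3 probe sets, which carry 2 symbols, were tested among all 27858 probe sets above the filter. Detection calls were not used here.

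Two-sided moderated tests were made with limma 3.58.1 in R 4.3.3, with an intensity trend, culture as a fixed block and Benjamini-Hochberg adjustment at 0.05. Residual degrees of freedom were 4 for the effects over both lines, 2 per line and 3 per hairpin. Tables and figures used Python 3.11.15, pandas 2.3.3 and matplotlib 3.10.9. The block follows the labels, by which cells of each construct were plated either with doxycycline or without. Across genes, the deviations of paired arrays had correlations of -0.038 (Z-138) and 0.202 (Maver-1). A p-value here reflects the spread among these cultures alone, which may be technical, and the number of arrays limits the precision. Data were simulated for the NIKsh effect over 11548 genes, with independent normal noise and 100 genes changed at each of 2 sizes. Of genes changed by 1 on the log2 scale 77% were recovered, and of those changed by 2, 96%, with 7 false calls. The real fit called 5 genes, so these shares need not hold for it. The fits per line were not simulated.

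All 9 members are named, with MAP3K14, the gene of each list with the smallest p in each direction over the NIKsh cultures, and the 3 nearest genes per member, and any other gene is said to be chosen after its values were seen. The members and lists were chosen with earlier results of these data known. Alternatives covered the pseudocount, the filter, the choice of probe set, scaling, the variance model, the block, covariates for 3' to 5' ratios and leaving out each culture. In the fits per line, leaving out an NTC culture cannot change a NIKsh estimate, so a call that holds there is no check of it.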

Additional observations from a re-analysis of the deposited data

Results flagged for a closer look

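Under the same induction of the MAP3K14 hairpins, 3 members differed between the lines at an unadjusted p under 0.05 in the limma test of the difference. TNFAIP3, the gene of A20, differed by 1.45 (Maver-1 minus Z-138, adjusted p = 0.0805), being lower in 2 of 2 Z-138 NIKsh cultures by at least 1.35 and within 0.06 of no change in both Maver-1 NIKsh cultures. NFKBIA differed by 0.72 (adjusted p = 0.547), lower in all 4 NIKsh cultures and further in Z-138. TNIP2 differed by -1.01 (adjusted p = 0.543), and its Z-138 NTC culture, without a MAP3K14 hairpin, changed by 1.43, as NIKsh#2 did. None of the 3 passed adjustment over all genes, and 8.59% of all genes reached an unadjusted p under 0.05 in this comparison.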

How the results depend on the processing

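Culture was a block in every doxycycline fit. With no replicate block, and with culture as a random replicate block, the called members went from 0 to 1 over the NIKsh cultures (CYLD), from 0 to 2 for NIKsh minus NTC (NFKBIA and CYLD) and from 0 to 1 for the line difference (TNFAIP3). The TNFAIP3 line difference was also called, 1 member, with arrays scaled to one median, where 52 of all genes were. The 3 Z-138 calls became 1 with averaged probe sets, 1 with array weights, and 0 with no intensity trend or with the ACTB ratio as a covariate, a fit with 1 degree of freedom left in which NFKBIB (0.68) and CYLD (0.64) in Z-138 and the line differences of NFKBIE (3.41) and CYLD (-1.18) turned sign. The ACTB slope rests only on how the ratio differed between the 2 hairpins within each line. With the GAPDH ratio, which also left 1 degree of freedom, TNFAIP3 in Maver-1 (0.0037) and the NFKBIE line difference (0.58) turned. Leaving out 1 culture at a time changed which members were called in Maver-1, in the line difference and between untreated NIKsh and NTC cultures. Such fits can leave 1 culture in a group, and calls over all genes changed with them. It moved TNIP2 in NIKsh minus NTC from -1.06 to 0.68, TNIP1 in Z-138 from -1.06 to 0.064 and between untreated NIKsh and NTC from -0.040 to 0.78, the NFKBIE line difference from -0.85 to 0.34, and untreated line differences of NFKBIZ from -0.20 to 0.0082 and of NFKBIB from -0.23 to 0.034. The cause was not tested for these. The 247 genes called in Z-138 became 23 with no intensity trend, 118 with averaged probe sets, 724 with no block, 892 with a random block, 0 with the ACTB ratio and up to 918 with a culture left out, and the 5 over the NIKsh cultures became 24 scaled to one median, 84 with no block and 0 without Z-138 NIKsh#1. Scaling to one median shifted the median change of all genes by 0.20 in Z-138 NTC, -0.17 in Z-138 NIKsh#1 and -0.18 in Maver-1 NIKsh#2.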
